A study of Mus musculus with 11 samples.

Results

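The cAMP-specific phosphodiesterases of the Pde4, Pde7 and Pde8 families were described in hearts of *Pde2A*-/- and *Pde2A*+/+ mouse embryos. Their members were chosen by gene family from the gene names, with earlier results of these data known, and are 8 of the 55487 genes counted. All 8 had at least 10 reads over the hearts and were among the 24177 genes tested. At E14.5, whole hearts of 5 *Pde2A*-/- and 6 *Pde2A*+/+ embryos gave 1 stranded library each. The embryos were B6; 129P2-Pde2A<tm1Dgen>/H from matings of heterozygotes, with no treatment named in the labels, and the sex of single embryos is not given. The knockout is constitutive and not restricted to the heart. Reads assigned to genes in the sense direction numbered 35865537 in the shallowest library and 42835382 in the deepest. The labels name the replicates A, B, 14, D and 15 in *Pde2A*-/- and 7, 11, 6, 8, H and E in *Pde2A*+/+ hearts, with no batch or litter stated.

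Cyclic AMP is made by adenylyl cyclases and is degraded by phosphodiesterases, which thereby set how far and how long its signal to protein kinase A, Epac and the Popeye domain proteins reaches. The enzymes of the Pde4, Pde7 and Pde8 families hydrolyse cAMP and not cGMP. By contrast, Pde2a acts on either of them, and cGMP raises its activity. In heart muscle the Pde4 enzymes are held by anchoring proteins close to calcium channels and the ryanodine receptor.

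The targeted gene could not be used to check the genotypes. *Pde2a* (ENSMUSG00000110195, GRCm38 chromosome 7, 101421691 to 101512827) had 0, 2, 0, 1 and 1 reads in *Pde2A*-/- replicates A, B, 14, D and 15, and from 0 to 2 reads in the *Pde2A*+/+ hearts. *Gm45837*, annotated on the same strand from 101410886 to 101512819, overlaps it, and a read that lies on several genes is assigned to none of them. The tissue label was met by its markers: all 10 cardiomyocyte genes examined were tested, and *Myh7*, a myosin heavy chain and the most abundant of them, had a mean of 13520 CPM (sense reads of a gene scaled to TMM library size) over the 11 hearts.

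Of the 8 genes, 4 were higher in *Pde2A*-/- hearts at an adjusted p under 0.05 (quasi-likelihood test of edgeR, Benjamini-Hochberg over all genes), namely *Pde4a*, *Pde4b*, *Pde4d* and *Pde7b*. Among all genes tested, 8.93% were higher and 5.67% were lower by the same rule. These shares include many genes with few reads, unlike most members, and the same holds where they stand beside the lists below. With filterByExpr, a stricter filter on counts, 2324 of 16853 genes were higher and 1884 lower, and 4 members were higher. No member was lower, at an adjusted or at an unadjusted p under 0.05, and DESeq2 also gave 4 higher and 0 lower, where it called 11.5% of all genes higher and 9.74% lower. In *Pde4b*, *Pde4d* and *Pde7b* the lowest *Pde2A*-/- heart lay above the highest *Pde2A*+/+ heart, which was so for 5.38% of all genes. None of the 8 reached a fold change of at least 2 with an adjusted p under 0.05, as 2.21% of all genes did in the higher direction. The median log2 fold change of the 8 genes was 0.51, against −0.02 over all genes tested. That median includes *Pde4c* and *Pde8b*, which had few reads. Over the 6 members with a mean of at least 1 CPM, a subset chosen after the values had been seen, it was 0.38. In letter-named hearts alone, those whose replicate name is a letter, the median of the 8 was 0.21, and in number-named hearts alone 0.64. Without *Pde2A*-/- replicate 15 it was 0.31. The medians of these subsets of hearts were also set out after the values had been seen. In whole hearts, a change in the number of cells of a type and a change in RNA per cell cannot be told apart.

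**Figure D1:**
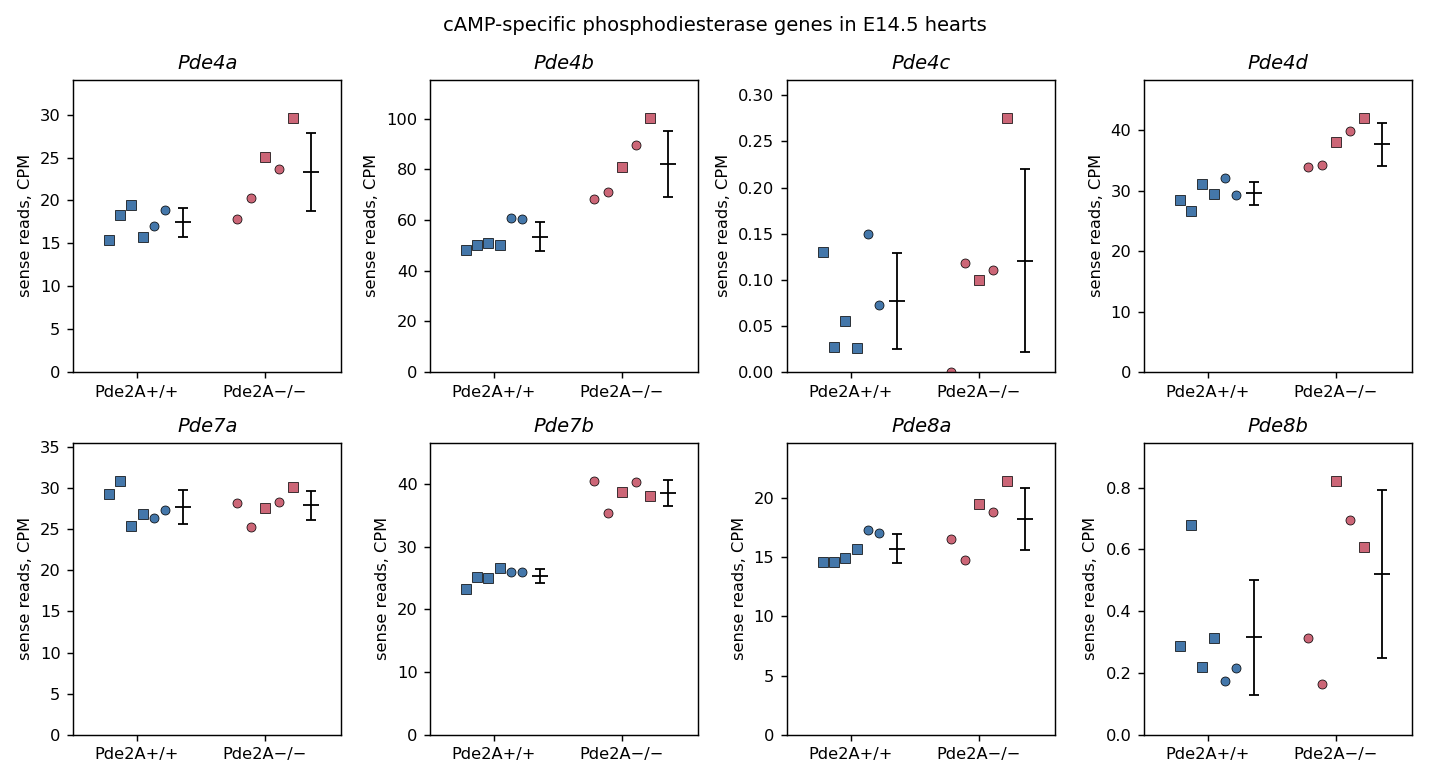
Sense reads of each member in every heart, in CPM normalized by TMM, with *Pde2A*+/+ in blue and *Pde2A*-/- in red; circles are hearts with a letter as replicate name, squares those with a number, and the bar beside each group is the mean ± SD (n = 6 and n = 5). The genotypes do not overlap in *Pde4b*, *Pde4d* and *Pde7b*, whose *Pde2A*-/- hearts start at 68.4, 34.0 and 35.4 CPM.

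*Pde4b* (ENSMUSG00000028525, chromosome 4, 102087543 to 102607259) encodes a cAMP-specific phosphodiesterase that in heart muscle limits calcium entry through L-type channels, and that is also abundant in leukocytes. It had 68.4, 71.0, 81.0, 89.7 and 100.3 CPM in *Pde2A*-/- replicates A, B, 14, D and 15, while the *Pde2A*+/+ hearts ranged from 48.2 to 60.9 with a median of 50.6 CPM. Every *Pde2A*-/- heart was above every *Pde2A*+/+ heart, replicate 15 being highest and replicate A nearest to the *Pde2A*+/+ hearts. On the log2 scale *Pde4b* differed by 0.62 (standard error 0.10, 95% interval 0.40 to 0.83; Benjamini-Hochberg adjusted p = 0.00179 by edgeR), or 1.54-fold. Among the *Pde2A*+/+ hearts, H and E, which are named by letters, had 60.9 and 60.3 CPM, above the other hearts of their genotype.

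*Pde4d* (ENSMUSG00000021699, chromosome 13, 108449948 to 109953461) encodes the family member that is recruited to activated receptors by arrestin and is found with the ryanodine receptor. Its level was 34.0, 34.3, 38.0, 40.0 and 42.1 CPM in *Pde2A*-/- replicates A, B, 14, D and 15, and 26.6 to 32.2 with a median of 29.4 CPM in *Pde2A*+/+ hearts. The genotypes did not overlap, with replicates A and B again lowest among the *Pde2A*-/- hearts. The log2 fold change was 0.35 (standard error 0.07, 95% interval 0.20 to 0.50; Benjamini-Hochberg adjusted p = 0.00564 by edgeR). The annotation places the pseudogene *Rps3a3* on the same strand within its introns, and neither it nor any other gene shares bases with the exons of *Pde4d*.

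*Pde4a* (ENSMUSG00000032177, chromosome 9, 21165714 to 21213248) encodes another rolipram-sensitive enzyme of the family. It had 17.9, 20.3, 25.1, 23.6 and 29.6 CPM in *Pde2A*-/- replicates A, B, 14, D and 15, and 15.4 to 19.5 with a median of 17.7 CPM in *Pde2A*+/+ hearts. *Pde2A*-/- replicate A lay within the *Pde2A*+/+ range and the other 4 *Pde2A*-/- hearts above it. The log2 fold change was 0.41 (standard error 0.11, 95% interval 0.17 to 0.66; Benjamini-Hochberg adjusted p = 0.0310 by edgeR). The adjusted p of the same edgeR test was between 0.0564 and 0.0782 without *Pde2A*-/- replicate 14, D or 15 or without *Pde2A*+/+ replicate 7, 8 or H, while the log2 fold change was between 0.32, without *Pde2A*-/- replicate 15, and 0.41. The same fits called fewer of all genes higher, 1288 without *Pde2A*-/- replicate D against 2160 in all hearts.

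*Pde4c* (ENSMUSG00000031842, chromosome 8, 70723720 to 70751186), the remaining gene of the family, was hardly counted. It had 0, 5, 4, 4 and 10 reads in *Pde2A*-/- replicates A, B, 14, D and 15, where the 0 of replicate A allows up to 3 reads or 0.0783 CPM by counting error alone, and 1 to 6 reads in *Pde2A*+/+ hearts. With 41 reads in all, a difference was not detectable at this depth (log2 fold change 0.61, 95% interval −0.77 to 1.99, edgeR's adjusted p = 0.572). The estimate was 0.09 without *Pde2A*-/- replicate 15 and 0.93 without *Pde2A*-/- replicate A.

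*Pde7b* (ENSMUSG00000019990, chromosome 10, 20398004 to 20725078) encodes a high-affinity, rolipram-insensitive cAMP phosphodiesterase. Its level was 40.5, 35.4, 38.7, 40.3 and 38.0 CPM in *Pde2A*-/- replicates A, B, 14, D and 15, against 23.3 to 26.6 with a median of 25.5 CPM in *Pde2A*+/+ hearts. The genotypes were far apart for their spread, since the SD was 5.38% of the mean in *Pde2A*-/- and 4.55% in *Pde2A*+/+ hearts. Unlike in the Pde4 genes, replicate A was the highest of the *Pde2A*-/- hearts. The log2 fold change was 0.61 (standard error 0.05, 95% interval 0.50 to 0.72; Benjamini-Hochberg adjusted p = 9.69e-06 by edgeR), and the gene ranked 44 by p among all genes tested.

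*Pde7a* (ENSMUSG00000069094, chromosome 3, 19223108 to 19311322), which encodes the related enzyme best known from T cells, did not pass the test. It had 28.2, 25.3, 27.6, 28.3 and 30.2 CPM in *Pde2A*-/- replicates A, B, 14, D and 15, and 25.3 to 30.9 with a median of 27.1 CPM in *Pde2A*+/+ hearts. The ranges lay on each other. Its log2 fold change was 0.01 (standard error 0.06, edgeR's adjusted p = 0.925), with a 95% interval of −0.12 to 0.15, and the sign of the estimate was negative without *Pde2A*-/- replicate 15 (−0.02) or *Pde2A*+/+ replicate 6 (−0.01). The antisense gene *Gm16093* covers 48 bases, or 0.620%, of its exons and had 5 reads in all.

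*Pde8a* (ENSMUSG00000025584, chromosome 7, 81213596 to 81334533) belongs to the family with the highest affinity for cAMP. It had 16.5, 14.8, 19.5, 18.8 and 21.4 CPM in *Pde2A*-/- replicates A, B, 14, D and 15, and 14.6 to 17.3 with a median of 15.3 CPM in *Pde2A*+/+ hearts. Replicates 14, D and 15 were above all *Pde2A*+/+ hearts, and replicates A and B were within their range. The log2 fold change of 0.21 (standard error 0.09, 95% interval 0.02 to 0.41) did not pass the adjustment (Benjamini-Hochberg adjusted p = 0.133 by edgeR), and passed it without *Pde2A*-/- replicate B (0.28). Over the 18 alternatives that kept both kinds of replicate name, edgeR's or DESeq2's adjusted p for *Pde8a* ranged from 0.0327, without replicate B, to 0.314. The gene lies 20.1 Mb from *Pde2a* on the same chromosome.

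*Pde8b* (ENSMUSG00000021684, chromosome 13, 95024454 to 95250336), known from steroid- and hormone-producing tissues, depended on how strands were counted. On the strand of the gene it had 12, 7, 33, 25 and 22 reads in *Pde2A*-/- replicates A, B, 14, D and 15 and 7 to 25 reads, median 10, in *Pde2A*+/+ hearts. On the opposite strand it had 30, 37, 15, 20 and 23 reads in the same *Pde2A*-/- hearts and 31 to 48 reads, median 38.5, in *Pde2A*+/+ hearts. Among the *Pde2A*-/- hearts, replicates 14, D and 15 had the most sense reads and the fewest on the opposite strand. Counted without regard to strand, the *Pde2A*-/- hearts had 23, 23, 32, 34 and 34 reads and the *Pde2A*+/+ hearts 23 to 39, median 32.5, so that the groups overlapped. The log2 fold change was 0.72 (95% interval −0.20 to 1.64) from sense reads and −0.13 from reads of both strands, and neither passed edgeR's test (adjusted p = 0.279 and 0.743). From sense reads it was 1.09 without *Pde2A*+/+ replicate 11 and 0.49 without *Pde2A*-/- replicate 14. The antisense gene *Gm48420* (chromosome 13, 95024301 to 95024900) shares 447 bases, or 7.60%, of the exons of *Pde8b* and had 250 reads of its own. Counted without regard to strand, a read on these shared bases is assigned to neither gene. The count of both strands is therefore not their sum. It was 339 reads over all hearts, against 171 sense and 360 opposite-strand reads.

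**Figure D2:**
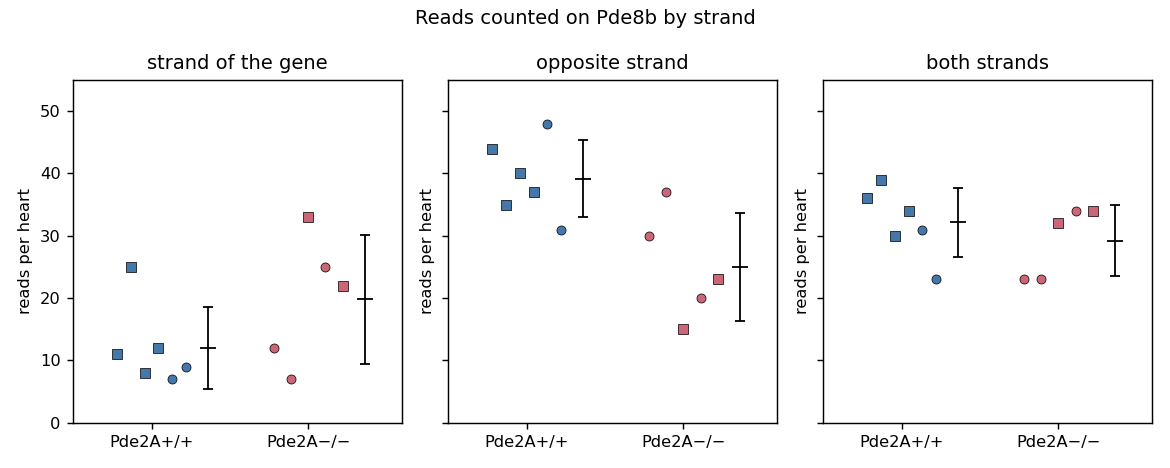
Reads counted on *Pde8b* in every heart on the strand of the gene, on the opposite strand and on both, with *Pde2A*+/+ in blue, *Pde2A*-/- in red, letter-named hearts as circles, number-named hearts as squares and the mean ± SD beside each group (n = 6 and n = 5). The count on both is made without regard to strand and is not the sum of the other counts. The reads on the gene's strand reach 33 in *Pde2A*-/- hearts, those on the opposite strand 48 in *Pde2A*+/+ hearts, and those of both strands overlap between the genotypes.

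Levels were compared between genes as CPM per kilobase of exon. In *Pde2A*+/+ hearts *Pde4b* was highest, with 5.06 ± 0.532 (SD, n = 6) CPM per kilobase, and its lowest heart was above the highest heart of *Pde8a*, with 3.88 ± 0.302. *Pde8a* and *Pde7a*, with 3.57 ± 0.264 CPM per kilobase, overlapped. *Pde4d*, *Pde4a* and *Pde7b* followed with 2.46 ± 0.164, 2.28 ± 0.221 and 2.03 ± 0.0925 CPM per kilobase, each overlapping the next. *Pde8b* and *Pde4c* were far below them, at 0.0536 ± 0.0316 and 0.0137 ± 0.00934 CPM per kilobase. In *Pde2A*-/- hearts *Pde4b* was at 7.77 ± 1.25 (SD, n = 5) and *Pde8a* at 4.504 ± 0.639 CPM per kilobase, and *Pde7b*, at 3.10 ± 0.167, stood beside *Pde4d* and *Pde4a* at 3.14 ± 0.294 and 3.04 ± 0.592. Ranked with the 9 other cyclic nucleotide phosphodiesterases that were tested, which leaves out *Pde2a*, *Pde4b* came in *Pde2A*+/+ hearts after only *Pde3a* with 7.32 and *Pde3b* with 5.68 CPM per kilobase. The order depended on the length used: per kilobase of coding sequence *Pde4b*, with 17.6, and *Pde7a*, with 17.3, overlapped in *Pde2A*+/+ hearts, *Pde7b* followed with 15.1, and *Pde8a*, with 6.36, was below *Pde4d* with 7.99.

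**Figure D3:**
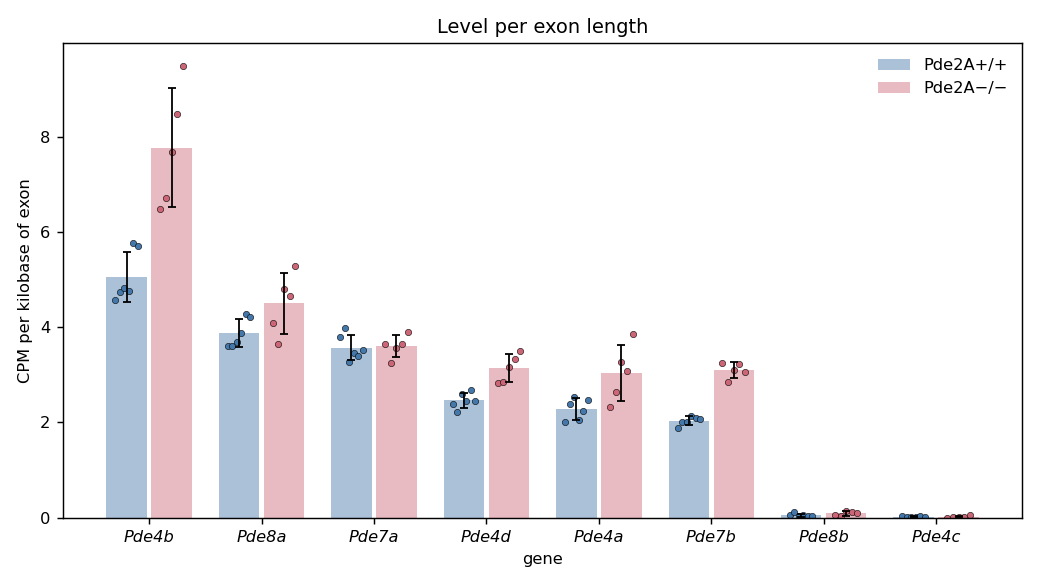
Level of each member in CPM per kilobase of exon, as mean (bar) ± SD with a point for each heart, *Pde2A*+/+ in blue (n = 6) and *Pde2A*-/- in red (n = 5). *Pde4b* is highest in both genotypes, at 5.06 and 7.77 CPM per kilobase, and *Pde8b* and *Pde4c* are near 0.

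Summed over the 8 genes, the level was 22.7, 22.04, 25.8, 26.6 and 29.3 CPM per kilobase in *Pde2A*-/- replicates A, B, 14, D and 15, and 18.3 to 20.5 with a median of 19.0 in *Pde2A*+/+ hearts. Every *Pde2A*-/- heart was above the *Pde2A*+/+ hearts. The Pde4 genes made up 51.3% to 57.8% in *Pde2A*-/- and 49.0% to 52.6% in *Pde2A*+/+ hearts, which overlapped. *Pde4b* alone made up 28.6% to 32.4% and 24.8% to 28.1%, *Pde7a* 13.3% to 16.1% and 16.6% to 20.9%, and *Pde8a* 16.6% to 18.7% and 18.9% to 20.9%, without overlap in any of these genes. A share is relative to the sum of the 8, which was higher in *Pde2A*-/- hearts, so that a lower share is not a lower level. The levels themselves were 3.603 and 3.574 CPM per kilobase for *Pde7a* and 4.504 and 3.88 for *Pde8a*, as means of *Pde2A*-/- and *Pde2A*+/+ hearts. These shares are a description, and each depends on the length chosen for every gene.

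Within genotypes the genes did not all vary together. Over the 11 hearts, the deviations of log2 CPM from the genotype means had a Pearson correlation of 0.901 between *Pde4b* and *Pde8a*, 0.822 between *Pde4b* and *Pde4d* and 0.760 between *Pde4b* and *Pde4a*, but 0.292 between *Pde4b* and *Pde7b* and 0.0433 between *Pde7a* and *Pde7b*. By the same measure, among 14023 genes whose mean reached 1 CPM, those most like *Pde4b* were *Il10rb* (0.991), *Ubald2* (0.981) and *Dlc1* (0.979). The genes most like *Pde7b* were *Lingo1* (0.856), *Men1* (0.828) and *Radil* (0.816), and those most like *Pde8a* were *Akt2* (0.956), *Slc6a17* (0.950) and *Gas2l3* (0.943). These correlations describe 11 hearts, each of them a library shared by all genes, and were not tested.

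Replicates are named by a number or by a letter, and values were also set out within each kind. *Pde4b* had means of 90.6 and 49.9 CPM in the 2 *Pde2A*-/- and 4 *Pde2A*+/+ number-named hearts, and 76.4 and 60.6 CPM in the 3 *Pde2A*-/- and 2 *Pde2A*+/+ letter-named hearts. *Pde8a* had 20.4 and 14.95 CPM in number-named hearts, without overlap, and 16.7 and 17.2 CPM in letter-named hearts, with overlap. *Pde7b* had 38.3 and 24.98 CPM by number and 38.7 and 25.9 CPM by letter. *Pde4d* had 40.05 and 28.97 CPM by number and 36.1 and 30.8 CPM by letter, and in *Pde4b*, *Pde4d* and *Pde7b* the genotypes did not overlap within either kind. *Pde4a* had 27.4 and 17.2 CPM by number, without overlap, and 20.6 and 17.96 CPM by letter, with overlap. With 2 to 4 hearts in a group, genotypes can lie apart by the order of hearts alone. The share of all genes without overlap within each kind was not counted. A test of whether the genotype difference itself differed between the naming styles gave adjusted p = 0.653 for *Pde4b*, *Pde8a* and *Pde4a*, 0.660 for *Pde4d* and 0.940 for *Pde7b* (edgeR's test of the interaction term, Benjamini-Hochberg over all genes). The unadjusted p was 0.00602, 0.00459, 0.0301, 0.0986 and 0.719 in this order. This test called 0 of the 24177 genes (0%) past its adjusted p, which therefore does not tell whether the members differed between the kinds. At an unadjusted p under 0.05 it gave 3 of the 8 members and 7.29% of all genes. In number-named hearts alone 5 members were higher past edgeR's adjusted p, *Pde8a* among them, in a fit that called 10.4% of all genes higher and 8.17% lower. In letter-named hearts alone 0 passed it, with 2 at an unadjusted p under 0.05, in a fit that called 0.401% of all genes higher and 0.0652% lower, so that a count of 0 is near that of all genes. The fit with naming style as a covariate called 4 members higher, and 9.74% of all genes higher and 6.61% lower.

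Promoters of 7 of the 8 genes, 16 windows of 300 bases in all, were taken from RefSeq on GRCm38.p6, each from 250 bases before to 50 bases after a transcript start; *Pde7a* had no entry. The cAMP response element, the palindrome TGACGTCA, was searched on both strands because the members that rose are set beside genes that respond to its binding protein. It was in 1.79% of all 32851 promoter windows and in 0 of the 16 of the members. Its core of 5 letters, TGACG or on the other strand CGTCA, which the palindrome contains, was in 20.8% of all windows and in 4 of the 16, 1 each of *Pde4a*, *Pde4b*, *Pde8a* and *Pde8b*. For each of the 4 genes that rose 1 window is shown 5′ to 3′ on the strand of the gene, with this core in capitals. *Pde4a* has 3 windows and *Pde4b* 4, and in each gene only the 1 shown holds the core. For *Pde4d* and *Pde7b* the window shown is the only one listed. These 2 genes have 20 and 8 annotated transcripts, and any other starts were not searched. The core begins 34 bases before the start in *Pde4b* (chr4:102421305-102421604, forward strand) and 50 bases before it in *Pde4a* (chr9:21183851-21184150, forward strand), and is absent from the windows of *Pde4d* (chr13:108653927-108654226, forward strand) and *Pde7b* (chr10:20548279-20548578, reverse strand). All 4 windows lie inside the annotated gene, with 87, 50, 122 and 192 of their bases in exons and the rest in introns. A match of letters is a description of the window only.
*Pde4b*: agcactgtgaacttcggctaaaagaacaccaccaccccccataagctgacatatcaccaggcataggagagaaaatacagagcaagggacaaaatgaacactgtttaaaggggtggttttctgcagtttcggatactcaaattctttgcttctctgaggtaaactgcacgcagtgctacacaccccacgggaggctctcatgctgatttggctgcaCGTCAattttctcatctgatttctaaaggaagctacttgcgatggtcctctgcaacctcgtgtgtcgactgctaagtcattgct
*Pde4a*: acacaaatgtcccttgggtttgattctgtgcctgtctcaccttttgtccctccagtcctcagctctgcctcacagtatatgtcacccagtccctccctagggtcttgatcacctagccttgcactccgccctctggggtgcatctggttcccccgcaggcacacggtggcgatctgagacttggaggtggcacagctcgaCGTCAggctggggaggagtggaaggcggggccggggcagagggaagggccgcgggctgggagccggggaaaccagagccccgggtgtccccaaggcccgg
*Pde4d*: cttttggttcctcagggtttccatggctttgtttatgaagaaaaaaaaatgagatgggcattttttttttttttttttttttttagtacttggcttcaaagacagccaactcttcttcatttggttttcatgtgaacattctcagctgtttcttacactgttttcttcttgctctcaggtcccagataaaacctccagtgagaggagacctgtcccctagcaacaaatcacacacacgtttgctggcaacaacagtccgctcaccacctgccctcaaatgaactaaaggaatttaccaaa
*Pde7b*: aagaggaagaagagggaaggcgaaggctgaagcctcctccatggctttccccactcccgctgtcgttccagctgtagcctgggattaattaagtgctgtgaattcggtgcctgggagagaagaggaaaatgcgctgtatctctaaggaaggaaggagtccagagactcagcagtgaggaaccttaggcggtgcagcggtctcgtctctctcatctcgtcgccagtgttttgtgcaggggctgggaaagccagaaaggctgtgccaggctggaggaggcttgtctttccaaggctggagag

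Among the other cyclic nucleotide phosphodiesterases, 9 of 13 genes were tested. Past edgeR's adjusted p, 3 were higher and 0 were lower, against 8.93% and 5.67% of all genes. At an unadjusted p under 0.05, 1 was lower, and with DESeq2 also 1. The median log2 fold change of the list was 0.21. *Pde10a*, a dual-specificity enzyme, had 6.68 ± 1.152 CPM in *Pde2A*-/- (SD, n = 5) and 4.11 ± 0.788 CPM in *Pde2A*+/+ hearts (SD, n = 6). The calcium- and calmodulin-activated *Pde1a* had 29.1 ± 2.99 and 23.4 ± 1.05 CPM, and the genotypes did not overlap. The cGMP-inhibited *Pde3a*, the most abundant of the list, had 115.8 ± 16.2 and 93.2 ± 7.42 CPM, and its log2 fold change of 0.31 lost its call without *Pde2A*-/- replicate D or 15 or *Pde2A*+/+ replicate 7, 11, 6 or 8 (edgeR's adjusted p = 0.0529 to 0.0839).

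Of the 17 genes of cAMP synthesis, 2 were higher and 1 was lower, against 8.93% and 5.67% of all genes. The median log2 fold change of the list was 0.09. The adenylyl cyclase gene *Adcy7* had 22.6 ± 2.99 CPM in *Pde2A*-/- and 11.9 ± 1.65 CPM in *Pde2A*+/+ hearts, without overlap (log2 fold change 0.92, standard error 0.11; Benjamini-Hochberg adjusted p = 1.47e-04 by edgeR). *Gnai1*, which encodes an inhibitory G protein subunit, fell by 0.21 on the log2 scale, a call that was lost without *Pde2A*-/- replicate 14, D or 15 or *Pde2A*+/+ replicate 6, 8, H or E (edgeR's adjusted p = 0.0507 to 0.105). *Gnas*, the stimulatory subunit and the most abundant gene of the list, had 1637 ± 48.1 and 1660 ± 59.0 CPM.

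The 14 genes of cAMP effectors moved in both directions, 3 higher and 3 lower, against 8.93% and 5.67% of all genes. The median log2 fold change of the list was −0.04. The regulatory subunit genes of protein kinase A *Prkar1b* and *Prkar2b* had 16.9 ± 3.86 and 40.5 ± 2.28 CPM in *Pde2A*-/- and 11.6 ± 0.947 and 30.7 ± 1.81 CPM in *Pde2A*+/+ hearts. *Prkar1b* lost its call without *Pde2A*-/- replicate D (edgeR's adjusted p = 0.0517). *Prkar1a*, another subunit gene and the most abundant of the list, had 816.6 ± 37.2 and 717.6 ± 44.4 CPM and lost its call without *Pde2A*-/- replicate 14, D or 15 or *Pde2A*+/+ replicate 7, 11 or 8 (edgeR's adjusted p = 0.0514 to 0.0752). The cAMP-binding Popeye domain genes *Bves* and *Popdc3* were lower in *Pde2A*-/- hearts without overlap, with 218.4 ± 24.3 and 26.8 ± 2.61 CPM against 287.1 ± 34.6 and 34.3 ± 4.69 CPM. *Popdc2*, the most abundant Popeye domain gene, had 411.0 ± 17.0 and 438.4 ± 52.2 CPM and did not pass (edgeR's adjusted p = 0.442). *Popdc3* lost its call without *Pde2A*-/- replicate 14, D or 15 or *Pde2A*+/+ replicate 6 (edgeR's adjusted p = 0.0511 to 0.0679).

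Of 17 genes for anchors and partners of phosphodiesterases, 2 were higher and 0 were lower with edgeR, against 8.93% and 5.67% of all genes, with a median log2 fold change of 0.12. At an unadjusted p under 0.05 these were 7 higher and 1 lower, and with DESeq2 5 higher and 0 lower. *Arrb1*, which encodes an arrestin that brings Pde4d to activated receptors, had 113.9 ± 13.9 CPM in *Pde2A*-/- and 69.8 ± 4.19 CPM in *Pde2A*+/+ hearts, without overlap (log2 fold change 0.71, standard error 0.07; Benjamini-Hochberg adjusted p = 5.28e-05 by edgeR). *Arrb2*, the other β-arrestin gene of the list, had 15.9 ± 1.17 and 15.1 ± 1.42 CPM and did not pass (edgeR's adjusted p = 0.578). The anchor gene *Akap13* had 210.9 ± 7.47 and 187.8 ± 8.34 CPM, and its call was lost without *Pde2A*-/- replicate D or 15 or *Pde2A*+/+ replicate 7 (edgeR's adjusted p = 0.0501 to 0.0572). *Rack1*, a scaffold that binds a Pde4d isoform and the most abundant of the list, had 958.1 ± 62.6 and 905.6 ± 42.8 CPM and passed the test only with naming style as a covariate (edgeR's adjusted p = 0.0475).

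Of 13 genes that respond to the cAMP response element binding protein, 7 were higher and 0 lower, against 8.93% and 5.67% of all genes. At an unadjusted p under 0.05, 1 was lower, and with DESeq2 0. The median log2 fold change of the list was 0.65. The transcription factor genes *Nr4a3*, *Fos* and *Nr4a1* had log2 fold changes of 1.74, 1.54 and 1.14, and *Sik1*, a salt-inducible kinase gene, of 0.89. *Ppargc1a*, a coactivator of mitochondrial genes and the most abundant of the list, had 186.1 ± 66.5 CPM in *Pde2A*-/- and 121.2 ± 19.1 CPM in *Pde2A*+/+ hearts. *Ppargc1a* passed with edgeR's adjusted p = 0.0495, and lost its call without any 1 heart other than *Pde2A*-/- replicates A and B and *Pde2A*+/+ replicate H (0.0704 to 0.138), and also with naming style as a covariate (0.0530), where 6 genes of the list were higher. *Nr4a1* lost its call without *Pde2A*-/- replicate D or 15 or *Pde2A*+/+ replicate 8 or H (edgeR's adjusted p = 0.0506 to 0.0845). The summed level of the list was 359.1, 368.6, 533.8, 705.1 and 743.4 CPM in *Pde2A*-/- replicates A, B, 14, D and 15, and 315.2 to 372.3 with a median of 350.9 CPM in *Pde2A*+/+ hearts. In this sum replicates A and B lay within the *Pde2A*+/+ range, while in *Sik1* and *Fos* all *Pde2A*-/- hearts, A and B included, were above the *Pde2A*+/+ hearts. Replicates A and B were also the *Pde2A*-/- hearts with the least *Pde4b*, *Pde4d*, *Pde4a* and *Pde8a*. Among all genes, 2887 and 2483 were called higher without A or B, against 2160 in all hearts. Without 14, D or 15 these were 1408, 1288 and 1381. The share of all genes with A and B lowest was not counted, so this order is not shown to be particular to these genes.

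Markers of several cell types moved with the genotype too, in a fit that called 8.93% of all genes higher and 5.67% lower. All 8 macrophage genes were higher past edgeR's adjusted p, *Csf1r* being the most abundant with a mean of 53.4 CPM over the 11 hearts, and no marker was at 0. Their summed level was 183.7, 204.6, 234.4, 233.5 and 238.3 CPM in *Pde2A*-/- replicates A, B, 14, D and 15, and 90.2 to 141.3 with a median of 122.0 CPM in *Pde2A*+/+ hearts. As in *Pde4b*, replicates A and B were the lowest *Pde2A*-/- hearts and the genotypes did not overlap. How many of all genes share this order of hearts was not counted.

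Of 8 erythroid genes 7 were higher, with *Slc4a1* most abundant at 202.7 CPM and none at 0. Their summed level was 481.6, 980.2, 773.0, 721.6 and 784.2 CPM in *Pde2A*-/- replicates A, B, 14, D and 15, and 113.7 to 512.4 with a median of 257.8 CPM in *Pde2A*+/+ hearts, replicate A lying within that range. *Alas2*, the gene that did not pass, had 124.3 CPM in *Pde2A*-/- and 189.0 CPM in *Pde2A*+/+ hearts, and in each of the other 7 genes all *Pde2A*-/- hearts, replicate A included, lay above the *Pde2A*+/+ hearts. Of 8 endothelial and endocardial genes 3 were higher, with *Cdh5* most abundant at 317.1 CPM and none at 0. Their sum was 1576, 1652, 1462.5, 1509 and 1476 CPM in the same *Pde2A*-/- hearts and 1195 to 1434 with a median of 1355.5 CPM in *Pde2A*+/+ hearts, without overlap. Of the fibroblast genes 3 of 7 were higher, with *Col3a1* most abundant at 2966 CPM, none at 0, and sums of 5602, 5435, 6821, 8756 and 7603 CPM in the *Pde2A*-/- hearts and 4628 to 8164 with a median of 5900.3 CPM in *Pde2A*+/+ hearts. Of the megakaryocyte genes 2 of 5 were higher, with *Itga2b* most abundant at 12.9 CPM, none at 0, and sums of 28.7, 28.3, 20.3, 22.7 and 31.0 CPM in the *Pde2A*-/- hearts and 12.2 to 20.9 with a median of 16.8 CPM in *Pde2A*+/+ hearts. The part of these cell types in the levels of the phosphodiesterase genes was not tested.

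Cardiomyocyte markers had 1 gene of 10 higher and 0 lower with edgeR (3 lower at an unadjusted p under 0.05, and 3 with DESeq2). Their sums were 34851, 38258, 38343, 36448 and 42041 CPM in *Pde2A*-/- replicates A, B, 14, D and 15 and 33753 to 44902 with a median of 38441 CPM in *Pde2A*+/+ hearts. Smooth muscle and pericyte markers, led by *Acta2* with 1112 CPM, had 1 gene of 7 lower, and sums of 1507, 1651, 1579, 1401 and 1653 CPM against 1481 to 2136 with a median of 1808 CPM. Skeletal muscle markers, led by *Myh3* with 17.8 CPM, had 1 of 6 higher, and sums of 8.72, 140.2, 15.5, 135.9 and 15.3 CPM against 6.71 to 32.8 with a median of 13.0 CPM, replicates B and D standing above all others. No marker of these lists was at 0, and their part in the levels of the members was not tested. For lymphocytes and thymus (led by *Lck*), neural and Schwann cells, liver (*Afp*) and lung (*Nkx2-1*), 0 of 10, 6, 6 and 2 genes tested passed edgeR's adjusted p, also with DESeq2, and 6, 1, 2 and 0 genes were lower at an unadjusted p under 0.05. The lymphocyte and thymus genes summed to 99.1 CPM in *Pde2A*+/+ replicate 7 and to between 2.14 and 3.31 CPM in the other hearts. Without replicate 7 the log2 fold change was 0.59 in *Pde4b*, 0.34 in *Pde4d*, 0.59 in *Pde7b* and 0.38 in *Pde4a*, whose call was lost (edgeR's adjusted p = 0.0597).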

How the data were processed

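RNA of single embryonic hearts was sequenced from one end in stranded libraries. The authors mapped reads to GRCm38 with STAR and deposited raw read counts per gene, for both strands together and for each strand; 19.6% to 22.4% of a library was unmapped, mapped to several places, or on no gene or several. Genotype and replicate name came from the labels. GENCODE M21 named 55141 of 55487 identifiers. The members and lists were chosen with earlier results of these data known.

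Sense counts were used. Genes reaching 10 counts in all were tested in edgeR 4.0.16 (R 4.3.3; TMM, quasi-likelihood test, Benjamini-Hochberg adjustment, threshold 0.05), with a common biological coefficient of variation of 16.8%. CPM are scaled to TMM library sizes, and length was the union of exons. Reads are not independent molecules, so the 3-read limit of a 0 covers counting error only. No source says that hearts came from separate litters.

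Named genes were the members, *Pde2a*, up to 4 genes of each pathway list with the largest change past the test and its most abundant gene (mean of at least 1 CPM), the 3 genes most like the most abundant member of each family, overlapping genes and the most abundant markers; *Arrb2*, *Popdc2* and *Alas2* were chosen after their values were seen, and some of these are not reported here.

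Alternatives were DESeq2 1.42.0, its size factors, filterByExpr, no filter, both strands, no globin genes, naming style as a covariate, each heart left out, other thresholds and lengths. The naming styles apart, their interaction, and all alternatives for lists were chosen after seeing the data. The fits were tested on simulated data of 5 against 6 hearts, with the same spread for all genes. There edgeR called 46 of 200 genes given a log2 change of 0.5, and 200 of 200 given 1. A member that does not pass can thus still differ by such an amount. Python 3.11.15, pandas 2.3.3, numpy 2.4.6, scipy 1.17.1 and matplotlib 3.10.9 were used.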

Additional observations from a re-analysis of the deposited data

Results flagged for a closer look

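A heart stood far from the others of its genotype in 7 of the 80 groups of values examined, where chance alone gives about 1 in 20 groups. *Pde2A*+/+ replicate 11 was the highest of its genotype in *Pde8b* with 0.679 CPM, in *Prkar1b* with 13.5 CPM and in the summed lung markers with 5.33 CPM. *Pde2A*-/- replicate 14 was the lowest of its genotype in *Gnai1* with 43.9 CPM. The summed lymphocyte and thymus markers were 99.1 CPM in *Pde2A*+/+ replicate 7. The summed liver markers were 36.1 CPM in *Pde2A*-/- replicate D and 112.7 CPM in *Pde2A*+/+ replicate E, each the highest of its genotype; *Pde2A*+/+ replicates 11 and H had 41.1 and 35.6 CPM, and replicates 7, 6 and 8 between 1.37 and 2.40 CPM.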

How the results depend on the processing

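No paired analysis was possible because the genotypes share no replicate name. *Pde4b*, *Pde4d* and *Pde7b* passed the test under all 18 alternatives that kept both naming styles, with log2 fold changes of 0.54 to 0.68, 0.31 to 0.39 and 0.59 to 0.64 without single hearts. Between 3 and 5 members were higher without single hearts, in fits that called from 1288 of 23862 genes (without *Pde2A*-/- replicate D) to 2887 of 23882 genes (without A) higher, 5 in number-named hearts, 0 in letter-named hearts alone (2 at an unadjusted p under 0.05, by edgeR), where the fits called 10.4% and 0.401% of all genes higher, and 0 with a fold change of at least 2. The sign turned for *Pde4c* (−0.50) and *Pde8a* (−0.042) in letter-named hearts, *Pde8b* (−0.13) with both strands, and *Pde7a* without *Pde2A*-/- replicate 15 (−0.015) or *Pde2A*+/+ replicate 6 (−0.0086), within a range of −0.015 to 0.046 without single hearts. *Gnas* turned to 0.12 with both strands, 0.0095 in number-named hearts and 0.00096 without *Pde2A*-/- replicate A (range −0.037 to 0.00096). The cause was not tested.

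Per kilobase of the longest transcript, levels in *Pde2A*+/+ hearts were 3.76 (*Pde4a*), 12.4 (*Pde4b*), 7.03 (*Pde4d*), 4.40 (*Pde7a*) and 4.72 (*Pde7b*) CPM. Per kilobase of coding sequence they were 6.40 (*Pde4a*), 17.6 (*Pde4b*), 0.0350 (*Pde4c*), 7.99 (*Pde4d*), 17.3 (*Pde7a*), 15.1 (*Pde7b*), 6.36 (*Pde8a*) and 0.112 (*Pde8b*) CPM, and *Pde8b* had 0.146 CPM per kilobase of exon with both strands.

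In letter-named hearts alone, where 86 of 21466 genes were higher and 14 lower, 0 other phosphodiesterases, 1 gene of cAMP synthesis, 0 effectors, 0 anchors and partners and 0 CREB-responsive genes were higher, and 0 genes of synthesis and 0 effectors lower. In number-named hearts alone, where 10.4% of all genes were higher and 8.17% lower, 3 other phosphodiesterases, 3 genes of synthesis and 2 effectors were higher. In the same hearts 3 anchors and partners and 9 CREB-responsive genes were higher, and 0 genes of synthesis, 2 effectors and 1 anchor or partner lower. DESeq2 called 1 other phosphodiesterase and 5 effectors lower and 5 anchors and partners higher, and the naming covariate 4 of the latter. Without single hearts, 0 to 1 genes of synthesis were lower, 1 to 3 effectors higher and 1 to 5 lower, 1 to 5 anchors and partners higher and 0 to 1 lower, and 4 to 9 CREB-responsive genes higher. Genes with few reads, *Pde4c* and *Pde8b*, are limited by depth and by the spread between hearts, and *Pde8b* also by how strands were counted.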
